A study of Mus musculus with 22 samples.

Results

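Deadenylases shorten the poly(A) tails of mRNAs, and poly(A)-binding proteins coat those tails. The genes described here are 10 named genes of this machinery, *Cnot1*, *Cnot2*, *Cnot3*, *Cnot6*, *Cnot6l*, *Cnot7*, *Cnot8*, *Pan2*, *Parn* and *Pabpc1*, chosen by name from the 55487 gene identifiers counted in mouse brown adipose tissue (BAT). All 10 had enough reads to be tested in both cohorts, among 17869 genes tested in untreated mice and 18899 in mice that received a virus. The study asked what the loss of CPEB2, an RNA-binding protein, does to BAT, and whether extra PRDM16, a transcription factor of brown fat, changes it. The untreated cohort held 5 CPEB2-WT and 5 CPEB2-KO mice aged 21 to 25 weeks, which by the study's account were kept without food for some hours before BAT was taken. In the AAV cohort, mice of 16 weeks received 30 μl of adeno-associated virus in the BAT, carrying either GFP (AAV-GFP) or flag-tagged PRDM16 (AAV-PRDM16), and BAT was taken 9 weeks later. That cohort held 3 mice in each of WT + AAV-GFP, KO + AAV-GFP, WT + AAV-PRDM16 and KO + AAV-PRDM16. All mice were of the C57BL/6 background and labelled male, the knockout was carried by the whole animal and not by fat alone, and WT and KO mice came from heterozygous crosses. Mice of the AAV cohort had no group without virus, so that every comparison there is among mice that received a virus.

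The CCR4-NOT complex is the main cytoplasmic deadenylase of animal cells. CNOT1 is its scaffold, CNOT2 and CNOT3 form a module bound to the end of CNOT1, CNOT6 and CNOT6L are alternative subunits of the CCR4 type of nuclease, and CNOT7 and CNOT8 are alternative subunits of the CAF1 type. PAN2 works with PAN3 on long tails, PARN acts on the tails of maternal mRNAs and of many small noncoding RNAs, and PABPC1 is the main cytoplasmic poly(A)-binding protein. CPEB proteins bind the cytoplasmic polyadenylation element, UUUUAU and close variants of it, in the 3′ UTR of an mRNA, and can recruit enzymes that lengthen its tail or deadenylases that shorten it.

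The element bound by CPEB proteins was looked for in the 10 genes themselves. It was searched as TTTTAT on the transcript strand of the 3′ UTR, in the annotated transcript with the longest coding sequence of each gene. It was found in 8 of the 10 genes, and 48.5% of all 21039 annotated 3′ UTRs hold at least 1 copy. *Cnot7* held 8 copies in 951 bases, where 51.2% of 3′ UTRs of like length hold the element and their median is 1 copy. *Cnot6* also held 8 copies, in 3690 bases, where the median of like 3′ UTRs is 3. *Pan2* held 3, *Cnot1* and *Cnot6l* 2 each, and *Cnot2*, *Cnot3* and *Pabpc1* 1 each. None was found in the 3′ UTRs of *Cnot8* and *Parn*, and the annotated *Cnot8* transcript is marked as incomplete at its end. A match is a description of the letters, and binding was not measured here. For each gene that holds the element, the copy nearest to the 3′ end is given with 10 bases on either side, to place the sequence class that CPEB2 is known for. The element is in capitals, the strand is that of the mRNA, and coordinates are of GRCm38.
*Cnot1* (chr8:95719506-95719531, minus strand): gatgtattgaTTTTATatatgtgagt
*Cnot2* (chr10:116485770-116485795, minus strand): gtttgtgcatTTTTATgtgaagatcc
*Cnot3* (chr7:3661081-3661106, plus strand): gaataaatagTTTTATatgacggctg
*Cnot6* (chr11:49672228-49672253, minus strand): ttgtttgtacTTTTATttgatttggt
*Cnot6l* (chr5:96075908-96075933, minus strand): taagctactgTTTTATtcccaaagtt
*Cnot7* (chr8:40493040-40493065, minus strand): ttaaggtacaTTTTATatcaataaaa
*Pan2* (chr10:128321326-128321351, plus strand): ataaaagtatTTTTATctcattagaa
*Pabpc1* (chr15:36595839-36595864, minus strand): caaattaatgTTTTATagaccctggg
In 6 of these genes, *Cnot1*, *Cnot3*, *Cnot6l*, *Cnot7*, *Pan2* and *Pabpc1*, the element lay within the last 200 bases of the 3′ UTR. Of the 17292 3′ UTRs of at least that length, 22.6% hold it there. In *Pan2*, *Cnot3* and *Cnot7* it lay 12, 13 and 14 bases from the annotated end. Counts and distances are those of the 1 transcript searched per gene and can differ in other transcripts. The annotated genes *Cnot6l* and *Cnot7* run on past the end of that transcript, to chr5:96070333 and chr8:40492540.

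Untreated libraries held 55320927 to 162721202 counts and AAV libraries 61636889 to 143005309, and the lowest count of any of the 10 genes was 432, for *Cnot6*. *Cpeb2*, the targeted gene, was at 7.69 to 14.3 CPM (counts scaled to a common library size by the TMM method, per 1000000) in untreated WT mice and at 2.10 to 5.78 CPM in KO mice 2 to 5, but at 11.7 CPM in the library labelled KO mouse 1. With virus it was at 4.33 to 5.55 CPM in KO and 10.5 to 14.0 CPM in WT mice, with no overlap. All 11 brown adipocyte markers were above 1 CPM in at least 1 library of every group. Untreated libraries stood apart from each other in other ways as well. Summed Y-linked transcripts were at most 1.17 CPM, with *Xist* at 104 to 305 CPM, in WT mice 3 and 5 and KO mice 1, 3, 4 and 5, although all mice are labelled male, and WT mouse 4 had both, at 116 and 14.0 CPM. WT mice 1 and 2 had Y-linked sums of 193 and 191 CPM with *Xist* at 0.0876 and 0.0310 CPM. KO mouse 2 was at 77.1 and 1.65 CPM. Y-linked transcripts were thus spread unevenly over the genotypes. The untreated comparison of KO with WT is therefore in part also one of libraries without and with these transcripts, and cannot be read as one among males. The 15 skeletal muscle markers were each above 1 CPM in at least 1 library of both untreated groups. They summed to 24.5 to 3908 CPM in WT and 23.9 to 8037 CPM in KO mice, and were highest in WT mouse 3 and KO mice 1, 2 and 5. With virus the muscle sum was 4.60 to 117 CPM and Y-linked transcripts were present in every library. The common dispersion, a measure of the spread between mice, was 0.312 for untreated and 0.0887 for AAV libraries.

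To set the genes side by side, levels were divided by the summed exon length of each gene. In BAT of WT + AAV-GFP mice *Pabpc1* was the highest by far, at 59.6 ± 5.31 CPM per kb (SD, n = 3). The CAF1-type gene *Cnot8* came next at 12.5 ± 0.709 CPM per kb, followed by *Cnot2* at 7.92 ± 0.503 and the scaffold gene *Cnot1* at 5.65 ± 0.366 CPM per kb. The remaining 6 genes lay between 2.49 and 5.32 CPM per kb, with the CCR4-type gene *Cnot6* the lowest. The levels of *Pabpc1*, *Cnot8*, *Cnot2* and *Cnot1* did not overlap from 1 to the next over the 3 libraries, nor did those of *Cnot7* and *Parn*, whereas *Cnot1* and *Cnot7*, and each pair of neighbours from *Parn* down through *Cnot3*, *Cnot6l* and *Pan2* to *Cnot6*, overlapped. In untreated WT mice *Pabpc1*, *Cnot8* and *Cnot2* were again the highest, and *Cnot6l* the lowest. The highest gene stood 28.0 times above the lowest there and 23.9 times in WT + AAV-GFP mice. With the longest transcript as the length, these ratios were 52.2 and 46.6, since the summed exons of *Pabpc1* (6540 bases) are much longer than its longest transcript (2916 bases), and *Cnot1* passed *Cnot2* in WT + AAV-GFP mice.

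**Figure D1:**
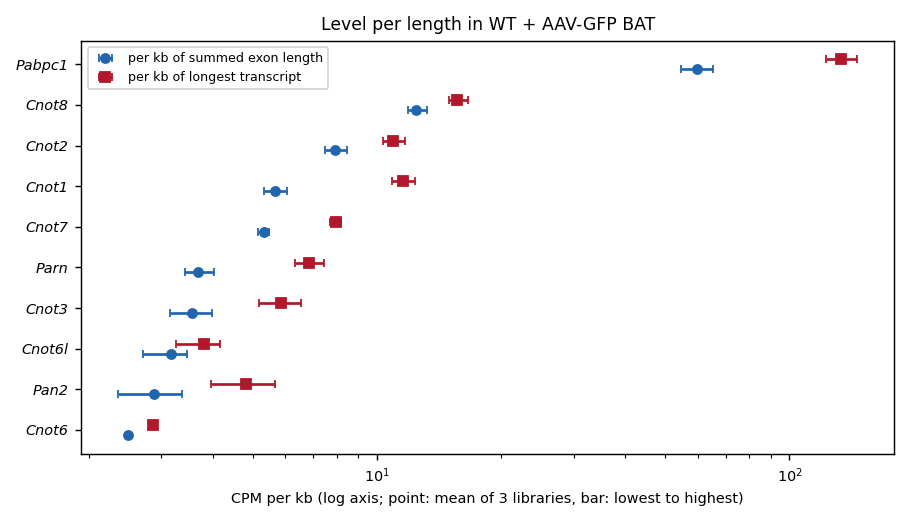
Level of each gene in CPM per kb (log axis) in WT + AAV-GFP BAT, per kb of summed exons (circles) or of the longest transcript (squares), as the mean of 3 libraries with bars from the lowest to the highest. *Pabpc1* stands above every other gene on both scales, and *Cnot6* is the lowest on both.

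In untreated mice, 9 of the 10 genes had lower mean levels in KO than in WT BAT, but no gene was called. By edgeR's quasi-likelihood test none reached a Benjamini-Hochberg adjusted p (FDR) of 0.05, and neither did any gene of the whole table (0%); DESeq2 also called none, with 2836 genes in edgeR and 3493 in DESeq2 at an unadjusted p below 0.05. The lowest adjusted p among the 10 genes was 0.305. At an unadjusted p below 0.05, 2 of the 10 genes were lower in KO mice, against 10.9% of all genes tested (15.9% in either direction). The study's own rule was a change of 2-fold or more with an FDR up to 0.5. Applied to the edgeR fit made here, and not to the study's own analysis, it passed none of the 10 and 10.8% of all genes. For none of the 10 did the 5 KO libraries lie apart from the 5 WT libraries, as they did for 1.4% of all genes. The median log2 fold change of the 10 genes was -0.48, and that of all genes tested was 0.04. In bulk tissue, fewer cells of a type and less RNA per cell cannot be told apart.

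**Figure D2:**
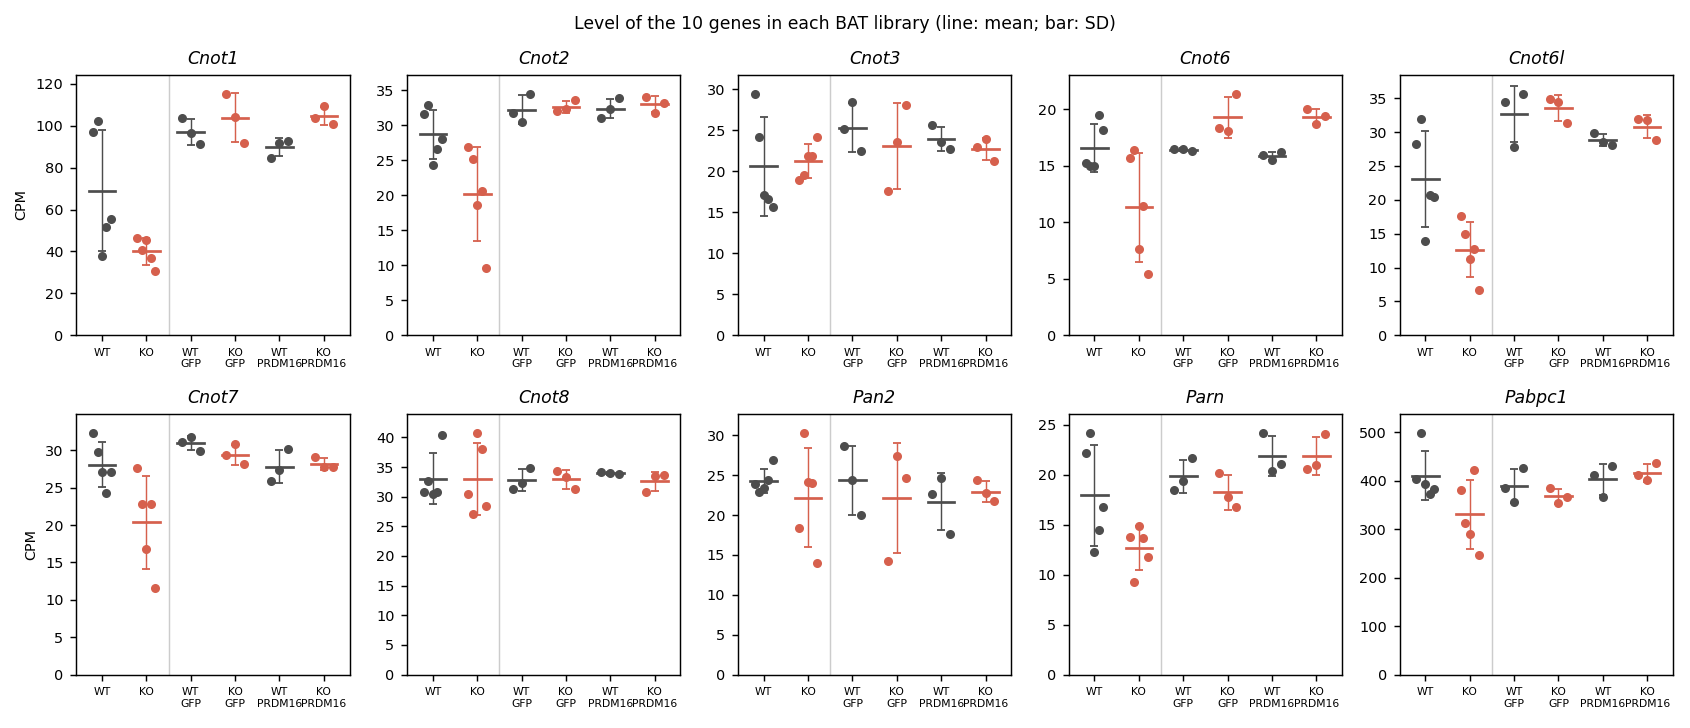
Level of each of the 10 genes in CPM in every library (points) of the 6 groups, untreated at the left of the grey line and AAV at the right, with the mean (line) and SD (bar). Untreated WT and KO libraries overlap for every gene, and *Cnot6* is the gene whose KO + AAV libraries, at 18.1 to 21.4 CPM, all lie above the WT + AAV libraries.

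The scaffold gene *Cnot1* was at 97.0, 102.5, 37.9, 51.9 and 55.6 CPM in WT mice 1 to 5 and at 46.6, 40.8, 45.6, 37.1 and 30.7 CPM in KO mice 1 to 5. WT mice 1 and 2 stood well above all other untreated mice, and WT mouse 3 lay within the KO range. The log2 fold change was -0.78 ± 0.29 (SE, unadjusted p = 0.0191 in edgeR, adjusted p = 0.305). Without WT mice 1 and 2 it was -0.21, with an unadjusted p of 0.364 in the same edgeR test. *Cnot2*, whose product pairs with CNOT3, was at 31.6, 32.9, 24.4, 26.6 and 28.1 CPM in WT and 26.9, 25.1, 18.7, 20.6 and 9.66 CPM in KO mice, a log2 fold change of -0.51 ± 0.26. KO mouse 5 was the lowest by a wide margin, and KO mice 1 and 2 lay within the WT range. *Cnot3* was at 15.6 to 29.5 CPM in WT, with a median of 17.1, and 19.0 to 24.2 CPM in KO mice, with a median of 21.8. WT mice 1 and 2 were again the highest, and the log2 fold change was 0.05 ± 0.23.

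The CCR4-type nuclease gene *Cnot6l* was at 28.2, 32.0, 13.9, 20.7 and 20.5 CPM in WT mice 1 to 5 and at 17.6, 14.9, 11.3, 12.8 and 6.74 CPM in KO mice 1 to 5. Except for WT mouse 3, every WT library was above every KO library. The log2 fold change was -0.86 ± 0.30, the largest of the 10 genes (unadjusted p = 0.0124 in edgeR, adjusted p = 0.305), and -0.48 without WT mice 1 and 2. *Cnot6*, its paralog, was at 15.2, 14.9, 15.0, 19.5 and 18.2 CPM in WT and 15.7, 16.4, 7.62, 11.5 and 5.41 CPM in KO mice. Here KO mice 1 and 2 were within the WT range, whereas KO mice 3, 4 and 5 were below every WT mouse, and the log2 fold change was -0.55 ± 0.30 (unadjusted p = 0.0877 in edgeR). Those 3 KO libraries also had the highest sums of brown adipocyte markers of the untreated cohort, at 10689 to 13394 CPM against 4496 to 8943 CPM in the other 7, and the part of this in the result was not tested.

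Of the CAF1-type genes, *Cnot7* was at 24.4 to 32.3 CPM in WT mice, with a median of 27.1, and at 27.7, 22.9, 16.8, 22.9 and 11.5 CPM in KO mice 1 to 5. Only KO mouse 1, the library with WT levels of *Cpeb2*, reached the WT range, and the log2 fold change was -0.47 ± 0.24 (unadjusted p = 0.0795 in edgeR). *Cnot8*, its paralog, had the smallest change of the 10 genes. Its levels were 30.4 to 40.5 CPM in WT, with a median of 30.9, and 27.1 to 40.7 CPM in KO mice, with a median of 30.4, and the log2 fold change was 0.00 ± 0.20.

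Outside CCR4-NOT, *Parn* was at 22.1, 24.2, 12.2, 14.5 and 16.7 CPM in WT and 13.8, 9.27, 14.9, 13.6 and 11.8 CPM in KO mice. As for *Cnot1*, WT mice 1 and 2 were the highest, and the log2 fold change of -0.50 ± 0.24 was -0.13 without them. *Pan2* was at 22.9 to 26.9 CPM in WT and 14.0 to 30.3 CPM in KO mice, with medians of 23.9 and 24.0, and the KO mice enclosed the WT range (log2 fold change -0.13 ± 0.23). *Pabpc1* was at 403, 498, 393, 373 and 382 CPM in WT and 381, 312, 291, 422 and 246 CPM in KO mice. KO mice 1 and 4 were within the WT range and the other 3 below it, with a log2 fold change of -0.31 ± 0.23 (unadjusted p = 0.196 in edgeR).

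Leaving out the library labelled KO mouse 1, whose *Cpeb2* level was that of WT mice, made the median log2 fold change of the 10 genes -0.57 and gave 5 genes at an unadjusted p below 0.05, with none at an FDR of 0.05. The share of all genes at that p also rose, from 15.9% to 22.2%. Without WT mice 1 and 2 the median was -0.19. The labels give these mice the same group and age as the other WT mice. Their library names carry lower numbers than those of all other untreated mice, and what the numbers mean is not given. WT mice 1 and 2 also had the highest Y-linked sums and the lowest *Xist* of the untreated cohort. In a fit with a term for libraries that hold Y-linked transcripts the median was -0.40. In neither fit was any of the 10 genes at an unadjusted p below 0.05 (edgeR), where 2.32% and 6.94% of all genes were.

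The untreated differences followed the base composition of the genes, taken as the GC content of the longest annotated transcript. Over all genes tested, the median log2 fold change was -0.62 for genes with a GC content under 40%, -0.48 from 40 to 45%, -0.19 from 45 to 50% and 0.38 at 50% or more. It also fell with transcript length, from 0.30 below 2000 bases to -0.41 at 6000 bases or more. The 10 genes run from 37.6% GC for *Cnot6l* to 51.2% for *Pan2*, and 8 of them are under 50%. When, library by library, this dependence on base composition and length was fitted and removed, the median log2 fold change of the 10 genes was -0.03, beside -0.02 for all genes. *Cnot6l* was then at -0.06, *Cnot6* at 0.00, *Cnot2* at -0.17, *Cnot1* at -0.22 and *Parn* at -0.35, while *Cnot7* was at 0.14, *Pabpc1* at 0.02 and *Cnot8* at 0.04. None of the 10 had an unadjusted p below 0.05 in that fit, where 6.49% of all genes did. What gave rise to the trend was not tested.

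**Figure D3:**
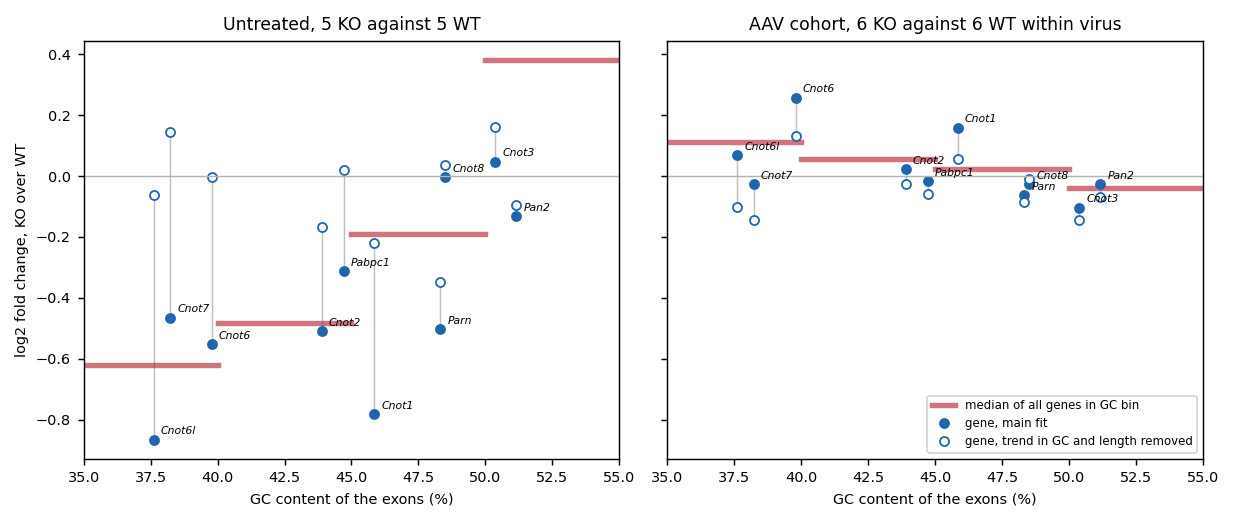
Log2 fold change of KO over WT against GC content (percent) for the 10 genes, untreated at the left and AAV at the right. The GC content is that of the longest annotated transcript, which the axis names as the exons. Values are as fitted (filled circles) and after the dependence on GC content and length was removed in each library (open circles). Red bars give the median of all genes tested in 4 bins of GC content, the outer bins drawn only within the axis. In untreated mice the bins run from -0.62 to 0.38 and the open circles lie nearer to 0 than the filled ones for most genes, whereas with virus the bins run from 0.11 to -0.04.

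With virus, the gene that set the genotypes apart most regularly was *Cnot6*, which was higher in every KO mouse without passing the test. Averaged over the 2 viruses, none of the 10 genes was called at an FDR of 0.05 by edgeR, against 2.18% of all genes tested. *Cnot6* and *Cnot1* were higher in KO mice at an unadjusted p below 0.05, where 9.54% of all genes were higher, 8.76% were lower and 18.3% were in either direction. The median log2 fold change was -0.02 over the 10 genes and 0.01 over all genes.

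*Cnot6* was at 16.5, 16.5 and 16.3 CPM in WT + AAV-GFP mice and at 16.0, 15.5 and 16.2 CPM in WT + AAV-PRDM16 mice. In KO mice it was at 18.4, 18.1 and 21.4 CPM with AAV-GFP and at 20.0, 18.7 and 19.4 CPM with AAV-PRDM16. All 6 KO libraries were above all 6 WT libraries, a separation that 2.71% of all genes showed in either direction and 1.13% in this direction. The log2 fold change was 0.26 ± 0.06 with an unadjusted p of 0.00173 and an adjusted p of 0.0592 in edgeR. It was 0.23 ± 0.09 with AAV-GFP (unadjusted p = 0.0262 in edgeR, adjusted p = 0.476) and 0.28 ± 0.09 with AAV-PRDM16 (unadjusted p = 0.00871 in edgeR, adjusted p = 0.209). With AAV-GFP the log2 fold change was 0.14 without KO + AAV-GFP mouse 3 (unadjusted p = 0.144 in edgeR). Its unadjusted p was also above 0.05 there without any 1 of the 3 WT + AAV-GFP mice, at 0.0521 to 0.0609, and in an edgeR fit of those 2 groups alone, at 0.0762. DESeq2 called *Cnot6* with the viruses averaged, at an adjusted p of 0.00226, where it called 8.38% of all genes. It also did so with AAV-PRDM16, at an adjusted p of 0.0496, where it called 3.28%. After removal of the GC and length dependence the log2 fold change of *Cnot6* was 0.13 (edgeR, unadjusted p = 0.0721). In this cohort the median log2 fold change of all genes under 40% GC, where *Cnot6* lies at 39.8%, was 0.11. The direction was opposite to the untreated cohort, in which *Cnot6* was lower in KO mice without being called, and that difference between cohorts was not tested. Other markers moved with genotype here. The 5 macrophage markers, each above 1 CPM in at least 1 library of every group, summed to 24.9 to 45.2 CPM in WT and 52.7 to 135 CPM in KO mice with AAV-GFP, and to 18.2 to 23.1 and 34.2 to 41.6 CPM with AAV-PRDM16. The 6 white adipocyte markers, 3 of them above 1 CPM in at least 1 library of each group, summed to 27.9 to 41.0 CPM in WT and 86.6 to 134 CPM in KO mice with AAV-GFP, and to 10.6 to 59.8 and 50.1 to 246 CPM with AAV-PRDM16. With AAV-PRDM16 the brown adipocyte sums were 5647 to 7329 CPM in WT and 4145 to 5147 CPM in KO mice. Schwann cell sums were 38.2 to 39.3 and 26.5 to 32.6 CPM there, and lymphocyte sums 4.03 to 5.01 and 5.07 to 7.93 CPM. With AAV-GFP the genotypes overlapped for each of these last sums. The part of any of these markers in the result was not tested.

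*Cnot1* was at 104, 96.3 and 91.2 CPM in WT and 115, 104 and 91.9 CPM in KO mice given AAV-GFP. With AAV-PRDM16 it was at 84.8, 91.8 and 92.7 CPM in WT and 104, 109 and 101 CPM in KO mice. The genotypes overlapped with AAV-GFP and did not overlap with AAV-PRDM16. The log2 fold change was 0.16 ± 0.07 with the viruses averaged (unadjusted p = 0.0433 in edgeR, adjusted p = 0.253) and 0.22 ± 0.10 with AAV-PRDM16 (unadjusted p = 0.0463 in edgeR, adjusted p = 0.354). It was 0.06 with the viruses averaged once the GC and length dependence was removed.

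The other 8 genes had log2 fold changes of -0.10 to 0.07 between genotypes. *Cnot6l*, which had the largest difference in untreated mice, was at 27.9 to 35.6 CPM in the 6 WT and 28.8 to 34.9 CPM in the 6 KO mice, a log2 fold change of 0.07 ± 0.07. *Cnot2* and *Cnot3*, whose products form a module, were at 0.02 ± 0.06 and -0.10 ± 0.11, and the CAF1-type genes *Cnot7* and *Cnot8* at -0.03 ± 0.06 and -0.03 ± 0.06. *Parn* was at -0.06 ± 0.08. *Pan2* was at -0.03 ± 0.15, the widest error of the 10 genes, with KO + AAV-GFP mouse 1 at 14.3 CPM and the other 11 libraries between 17.7 and 28.6 CPM. *Pabpc1* was at 354 to 437 CPM over the 12 libraries, with a log2 fold change of -0.02 ± 0.07.

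**Figure D4:**
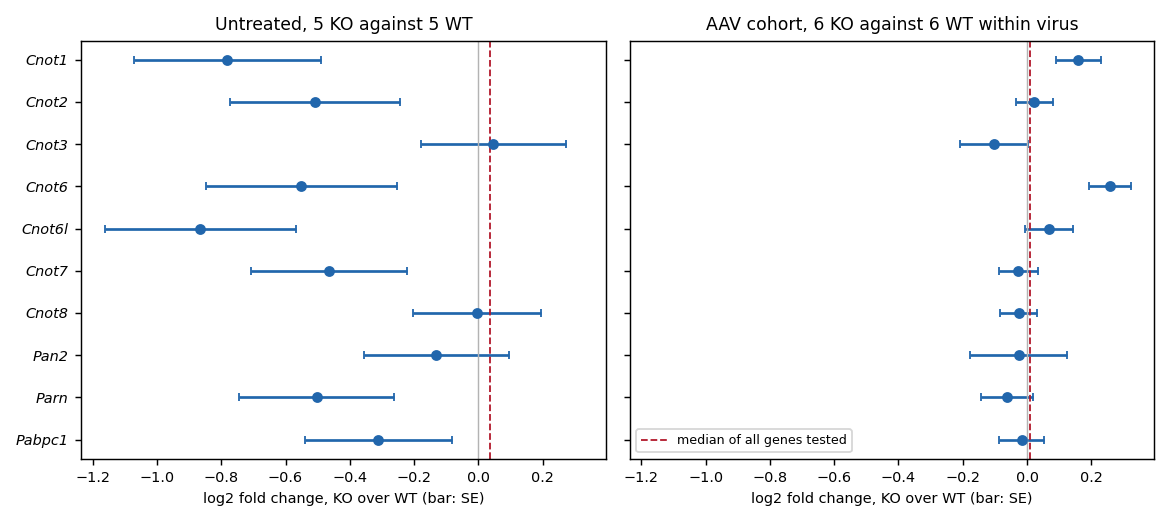
Log2 fold change of KO over WT with its SE (bars) for the 10 genes in the untreated cohort (left) and the AAV cohort with the viruses averaged (right), and the median of all genes tested (dashed). *Cnot6l* and *Cnot1* are lowest at the left, at -0.86 and -0.78, and *Cnot6* is highest at the right, at 0.26.

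Within a single virus, edgeR called 10 genes at an FDR of 0.05 with AAV-GFP (0.0529% of those tested) and 9 with AAV-PRDM16 (0.0476%), none of them among the 10 genes. With AAV-GFP 1 of the 10, *Cnot6*, had an unadjusted p below 0.05, against 9.18% of all genes, and it was also the 1 gene without overlap, against 13.4%. With AAV-PRDM16, *Cnot6* and *Cnot1* had an unadjusted p below 0.05, against 13.7%, and *Cnot6*, *Cnot1* and *Cnot8* had no overlap, against 22.8%. *Cnot8* there was at 34.2, 33.9 and 33.8 CPM in WT and 30.8, 33.4 and 33.6 CPM in KO mice, so that the WT mice were higher by a margin within the spread of the KO mice (log2 fold change -0.06 ± 0.08).

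Between AAV-PRDM16 and AAV-GFP none of the 10 genes was called in either genotype. In WT mice edgeR called no gene at all at an FDR of 0.05 (0%, with 1377 at an unadjusted p below 0.05 and 152 called by DESeq2). None of the 10 had an unadjusted p below 0.05 there, against 7.29% of all genes. The 1 gene without overlap, against 14.2% of all genes, was *Cnot6*, at 16.3 to 16.5 CPM with AAV-GFP and 15.5 to 16.2 CPM with AAV-PRDM16 (log2 fold change -0.05 ± 0.09). In KO mice edgeR again called none (0%, with 1211 at an unadjusted p below 0.05 and 266 called by DESeq2). At an unadjusted p below 0.05 was 1 of the 10 genes, against 6.41%. That gene was *Parn*, at 20.2, 17.7 and 16.7 CPM in KO + AAV-GFP and 20.6, 21.0 and 24.0 CPM in KO + AAV-PRDM16 mice. The groups did not overlap, by a margin of under 1 CPM, and the log2 fold change was 0.26 ± 0.11 (unadjusted p = 0.0388 in edgeR, adjusted p = 0.717). Lymphocyte markers, 8 in all, summed to 16.3 to 66.0 CPM in KO + AAV-GFP (6 of 8 above 1 CPM in at least 1 library) and 5.07 to 7.93 CPM in KO + AAV-PRDM16 mice (1 of 8), and their part in the result was not tested. *Pabpc1* also had no overlap, at 384, 354 and 367 CPM with AAV-GFP and 412, 401 and 437 CPM with AAV-PRDM16 (log2 fold change 0.18 ± 0.10, unadjusted p = 0.102 in edgeR), so that 2 of the 10 genes had none, against 9.43% of all genes. In WT mice *Parn* was at 18.4, 19.4 and 21.7 CPM with AAV-GFP and 24.1, 20.4 and 21.1 CPM with AAV-PRDM16, a log2 fold change of 0.14 ± 0.11. The mice with both changes, KO + AAV-PRDM16, were also set against WT + AAV-GFP mice. Of all genes 1 was called there (0.00529%), which was *Cpeb2* at a log2 fold change of -1.37, and DESeq2 called 157. *Cnot6* was the 1 gene of the 10 with an unadjusted p below 0.05, against 7.93% of all genes, at a log2 fold change of 0.24 ± 0.09 (unadjusted p = 0.0233 in edgeR). *Cnot6* and *Cnot7* had no overlap there, against 13.2% of all genes, and *Cnot7* was the lower in KO + AAV-PRDM16, at 27.7 to 29.1 CPM against 30.0 to 31.8 CPM (log2 fold change -0.14 ± 0.09). These comparisons share groups of mice. For the interaction of genotype and virus edgeR called no gene (0%, with 603 at an unadjusted p below 0.05 and 1 called by DESeq2) and none of the 10 had an unadjusted p below 0.05, against 3.19% of all genes, and their interaction terms lay between -0.06 and 0.22 on the log2 scale.

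Paralogs that can take the same place in the complex were compared as ratios of CPM within each library, which do not depend on how libraries are scaled. They still carry each library's dependence on GC content and length. The ratios are not per length and were compared only between libraries. *Cnot6l* over *Cnot6* was 1.99 ± 0.261 in WT + AAV-GFP (SD, n = 3), 1.76 ± 0.251 in KO + AAV-GFP, 1.81 ± 0.0751 in WT + AAV-PRDM16 and 1.59 ± 0.108 in KO + AAV-PRDM16 mice. The difference of KO from WT within virus was -0.18 on the log2 scale, and an exact permutation test, two-sided, gave p = 0.065 (adjusted over 9 tests, 0.195). In untreated mice it was 1.42 ± 0.539 in WT and 1.17 ± 0.208 in KO, and WT mice 1 and 2, at 1.85 and 2.14, were above the other 8. *Cnot7* over *Cnot8* was 0.862 ± 0.143 in WT and 0.635 ± 0.236 in KO untreated mice (exact permutation p = 0.111, adjusted 0.2). KO mice 3, 4 and 5 were at 0.414, 0.600 and 0.405, below all WT mice. *Cnot7* has a GC content of 38.2% and *Cnot8* of 48.5%. The untreated median log2 fold changes of all genes under 40% and from 45 to 50% GC were -0.62 and -0.19, and their part in the ratio was not tested. With virus this ratio differed between genotypes by less than 0.01 on the log2 scale (exact permutation p = 1).

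*Pabpc1* over *Pabpc4*, a second cytoplasmic poly(A)-binding protein gene, was the ratio that differed by the test. It was 3.96, 3.87 and 4.11 in WT and 4.31, 4.25 and 4.53 in KO mice given AAV-GFP. With AAV-PRDM16 it was 3.17, 3.78 and 3.93 in WT and 3.97, 4.08 and 4.91 in KO mice. Within each virus every KO library was above every WT library. Of single genes, 13.4% had no overlap in either direction with AAV-GFP and 22.8% with AAV-PRDM16. The share of other gene ratios without overlap was not computed. The difference on the log2 scale was 0.19 in favour of KO mice (exact permutation p = 0.005, the smallest the design allows, adjusted over 9 tests 0.045). It came with lower *Pabpc4* in KO mice, at 84.4 ± 4.16 against 97.8 ± 5.78 CPM with AAV-GFP and 96.9 ± 7.46 against 112 ± 16.7 CPM with AAV-PRDM16, since *Pabpc1* itself had a log2 fold change of -0.02. Leaving out 1 library at a time kept the direction with differences of 0.15 to 0.22, and the adjusted p was above 0.05 without KO + AAV-GFP mouse 3, WT + AAV-PRDM16 mouse 1 or 2, or KO + AAV-PRDM16 mouse 2 or 3, at 0.09 to 0.18 (exact permutation tests). In untreated mice the ratio was lower in KO, at 3.18 ± 0.821 against 4.21 ± 0.504 (exact permutation p = 0.0635, adjusted 0.195). Between viruses none of the 3 ratios differed by the test, with exact permutation p of 0.09 to 0.295. On the log2 scale AAV-PRDM16 differed from AAV-GFP by -0.13 for *Cnot6l* over *Cnot6*, -0.13 for *Cnot7* over *Cnot8* and -0.08 for *Pabpc1* over *Pabpc4*. With single libraries left out these were -0.19 to -0.09, -0.16 to -0.10 and -0.13 to -0.03.

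**Figure D5:**
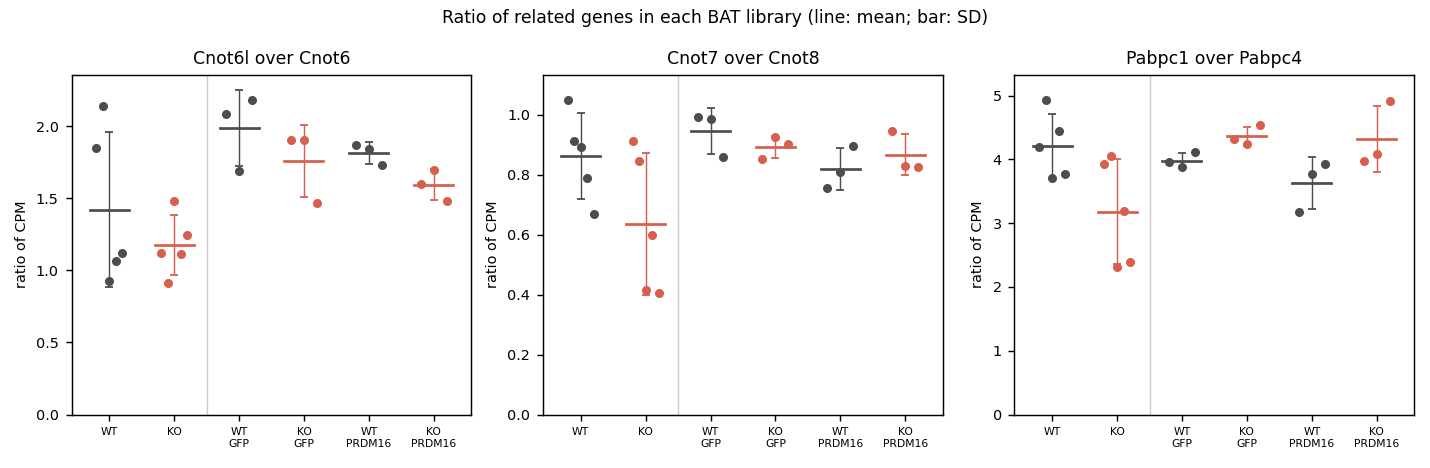
Ratio of CPM of related genes in every library (points) of the 6 groups, with the mean (line) and SD (bar). *Pabpc1* over *Pabpc4* lies higher in KO than in WT mice within each virus, and *Cnot6l* over *Cnot6* spreads from 0.911 to 2.18.

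The rest of the pathway was described by 73 other genes in 6 lists, of which 66 were tested in untreated and 68 in AAV mice. In untreated mice none was called at an FDR of 0.05. At an unadjusted p below 0.05, 13 were lower and 1 was higher in KO mice, beside the 10.9% of all genes that were lower and the 892 of 17869 that were higher, and the median log2 fold change of the 66 genes was -0.29. The median of these 66 genes was -0.10 after removal of the GC and length dependence and -0.08 without WT mice 1 and 2. After that removal 4 genes were lower and 1 higher at that level, beside 6.49% of all genes and none of the 10. *Tnrc6b* and *Dcp2* were still lower at that level (unadjusted p = 0.0195 and 0.0180 in edgeR). Without WT mice 1 and 2 none of the 66 was at that level. Without WT mouse 1 alone 4 were lower, and without KO mouse 1, the library with WT levels of *Cpeb2*, 23 were. Among the proteins that recruit CCR4-NOT, 6 of 19 were lower at that level, with *Tnrc6b*, a partner of Argonaute proteins in miRNA silencing, at -1.10 ± 0.38, *Rc3h1*, which encodes Roquin-1, at -0.92 ± 0.30 and *Ago3* at -0.86 ± 0.31. The other 3 were *Rc3h2*, *Ago1* and *Pum2*, at -0.81, -0.87 and -0.76. After removal of the GC and length dependence *Tnrc6b* was at -0.61 and *Rc3h1* at -0.18. In decapping and decay from the 5′ end, where 3 of 13 were lower, *Xrn1*, the cytoplasmic exonuclease, was at -1.23 ± 0.36 and *Dcp2*, the decapping enzyme, at -1.20 ± 0.37 (-0.47 and -0.54 after removal of the GC and length dependence), while *Edc4*, a decapping cofactor, was the 1 gene that was higher, at 0.51 ± 0.22. *Ddx6*, a helicase that binds CNOT1, was at -0.63 ± 0.27. Of the polymerases and polyadenylation factors 3 of 17 were lower at that level, which were the targeted gene *Cpeb2* itself at -0.99 ± 0.41, *Tent4b*, a noncanonical poly(A) polymerase, at -0.81 ± 0.31, and *Cpsf2* at -0.81 ± 0.32, and of the other deadenylases 1 of 7, *Angel2*, at -0.60 ± 0.23. None of the 4 other CCR4-NOT subunits and none of the 6 tested poly(A)-binding proteins and their regulators had an unadjusted p below 0.05. The most highly expressed of these were *Cnot10* and *Cnot4*, at -0.18 ± 0.19 and -0.32 ± 0.28, and *Pabpc4* and *Paip2*, at 0.13 ± 0.21 and -0.41 ± 0.25.

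With the viruses averaged, 2 of the 68 genes were called at an FDR of 0.05 by edgeR, both lower in KO mice, beside 2.18% of all genes. DESeq2 called 4 as higher and 3 as lower, beside 8.38% of all genes. The first was the targeted gene *Cpeb2*, at -1.26 ± 0.10. The second was *Zfp36l2*, whose product binds AU-rich elements and recruits CCR4-NOT, at 158 ± 9.47 CPM in WT and 115 ± 27.1 CPM in KO mice with AAV-GFP and at 171 ± 10.2 and 103 ± 10.7 CPM with AAV-PRDM16 (log2 fold change -0.59 ± 0.11, adjusted p = 0.0207 in edgeR). The adjusted p of *Zfp36l2* in edgeR was 0.0541 to 0.0577 without WT + AAV-GFP mouse 2 or 3, KO + AAV-GFP mouse 2 or WT + AAV-PRDM16 mouse 1. At an unadjusted p below 0.05, 8 genes were higher and 6 lower, beside 9.54% and 8.76% of all genes, and the median log2 fold change of the 68 genes was 0.00. After removal of the GC and length dependence 4 were higher and 10 lower at that level. Higher in KO mice at that level, though not called, were *Btg2* at 0.60 ± 0.16 and *Zfp36* at 0.47 ± 0.14, both of which recruit CCR4-NOT, and *Zfp36l1* at 0.26 ± 0.10 and *Tnrc6b* at 0.20 ± 0.07 (*Tnrc6b* at 0.07 after that removal). *Dcp2* was at 0.30 ± 0.07 and *Xrn1* at 0.21 ± 0.06 (0.17 and 0.07 after that removal), opposite in sign to the untreated cohort, and *Lsm1*, a subunit of the ring that binds shortened tails, was at -0.36 ± 0.10. *Pabpc4* was at -0.21 ± 0.08 and *Angel2* at -0.20 ± 0.07. *Tent5a*, a noncanonical poly(A) polymerase, was at 0.32 ± 0.12, *Cpeb4* at 0.24 ± 0.10 and *Sympk* at -0.17 ± 0.07. The macrophage and white adipocyte sums given for *Cnot6* moved with these genes as well, and their part was not tested. No gene of the lists was at an FDR of 0.05 between AAV-PRDM16 and AAV-GFP in either genotype or for the interaction.

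Finally, each of the 10 genes was set against all 17198 genes tested in both cohorts by the root mean square difference of log2 CPM over the 22 libraries, each cohort centred on its own mean. Among the 10, *Cnot2* and *Cnot7* were each other's nearest, at 0.119, and 22 and 13 genes outside the 10 were nearer to them. *Cnot6l* was nearest to *Cnot2*, at 0.190, and *Cnot6* to *Cnot2*, at 0.193, so that neither CCR4-type gene was nearest to its own paralog. *Pan2* and *Cnot3* were farthest from the rest, at 0.303 and 0.288 from *Cnot8*, the nearest of the 10 to both, with 649 and 1163 other genes nearer. These distances exceeded the genes' own root mean square deviations, 0.277 for *Pan2* and 0.224 for *Cnot3*. A gene that varies little, as *Cnot8* did, can be nearest by this measure without moving with the other gene. Over the whole table the nearest genes were *Sike1* for *Cnot1* (0.0945), *Parp2* for *Cnot2* (0.0869), *Upf1*, a factor of nonsense-mediated decay, for *Cnot3* (0.117), *Mapre1* for *Cnot6* (0.137), *Ubxn7* for *Cnot6l* (0.0866), *Ddx42* for *Cnot7* (0.0974), *Ube2q1* for *Cnot8* (0.0954), *Rbm5* for *Pan2* (0.127), *Nbas* for *Parn* (0.116) and *Fkbp9* for *Pabpc1* (0.104). *Cnot8* varied least over the libraries, with a root mean square deviation of 0.141, and *Cnot6l* most, with 0.431. The values of a library share its depth and its dependence on base composition.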

How the data were processed

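BAT mRNA was sequenced in 22 libraries, each taken here as 1 mouse, as the labels number them. The authors deposited a table of read counts per gene for each cohort, as whole numbers without normalization. The submitters' processing notes name bcl2fastq 2.20, Trimmomatic 0.36, HISAT2 and GRCm38.p6; the counting tool, annotation release, strand and molecular identifiers are not given in the sources used here, so reads that paralogs share are uncertain. Gene names, exon lengths, GC content and 3′ UTRs came from GENCODE M21 (GRCm38), which named 55227 of 55487 identifiers. Each cohort was fitted on its own in R 4.3.3 with edgeR 4.0.16 (filterByExpr, TMM, quasi-likelihood test, two-sided, Benjamini-Hochberg over all genes tested), and the AAV fit used all 12 libraries. CPM used TMM library sizes. Paralog ratios were compared by exact permutation tests. The tests of the 10 genes were recomputed with DESeq2 1.42.0, with RLE scaling, without a filter on low counts, with the replicate number as a block, with splines of 4 degrees of freedom that remove each library's dependence on GC content and length, with single libraries left out, and with the groups compared alone; ratios were recomputed with single libraries left out. The pathway counts without WT mice 1 and 2 or the GC and length dependence were added after seeing the data. The scripts were tested on simulated data. The genes, lists and tests were chosen with earlier results of these data known. Named beside the 10 genes were *Cpeb2*, up to 6 genes per list with the smallest unadjusted p below 0.05 or, with none, the 2 with the highest mean, and the nearest gene to each of the 10; in comparisons other than untreated and averaged viruses, genes of the 10 without overlap but with a p above 0.05 were named after their values were seen. Pairs of libraries of 1 group differed by more than counting noise, and p-values measure the spread between these libraries.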

Additional observations from a re-analysis of the deposited data

Results flagged for a closer look

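Of 20 sets of 5 untreated libraries (10 genes in each genotype), 2 had a library far from the other 4 by Dixon's test, and chance alone gives about 1 in 20. *Cnot8* was at 40.5 CPM in WT mouse 5, with the other WT mice at 30.4 to 32.7 CPM. *Pabpc1* was at 498 CPM in WT mouse 2, with the other WT mice at 373 to 403 CPM.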

How the results depend on the processing

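None of the 10 genes was called at an FDR of 0.05 by edgeR in any of the 8 comparisons, and this held under RLE scaling, no filter on low counts and the removal of the trend in GC content and length. DESeq2 called 1 gene with AAV-PRDM16 and 1 with the viruses averaged, *Cnot6* in both cases. With single libraries left out the number called with the viruses averaged was 0 to 1, *Cnot6* without KO + AAV-GFP mouse 1, and its log2 fold change was 0.21 to 0.28 over these fits. In untreated mice the removal of the trend turned *Cnot7* to 0.14, *Cnot8* to 0.0363 and *Pabpc1* to 0.0204. *Cnot8* was also above 0 with DESeq2 (0.0522), RLE scaling (0.0524) and without WT mice 1 and 2 (0.0174). In the AAV cohort the removal turned *Cnot2* to -0.0265 and *Cnot6l* to -0.10, and the cause was not tested. With single libraries left out, log2 fold changes that changed sign were those of *Cnot3* (-0.0413 to 0.21) and *Cnot8* (-0.0948 to 0.0835) in untreated mice, and of *Cnot7* (-0.0531 to 0.00337), *Pan2* (-0.12 to 0.0893) and *Pabpc1* (-0.0494 to 0.0168) in the AAV cohort. The ratio of *Cnot7* over *Cnot8* between genotypes with virus was -0.0343 to 0.0323 on the log2 scale, and that of *Pabpc1* over *Pabpc4* was 0.15 to 0.22. Over all genes, edgeR called 412 with the viruses averaged, beside 250 without a filter, 218 with the GC and length dependence removed and 1584 by DESeq2; with AAV-GFP it called 10, beside 243 by DESeq2, 3 with the dependence removed and 1 with the replicate block, and with AAV-PRDM16 9, beside 619, 4 and 5. With single libraries left out these counts were 89 (without KO + AAV-PRDM16 mouse 1) to 590 (without KO + AAV-GFP mouse 1), 0 to 8 and 0 to 15. Of the 66 other pathway genes, 13 were lower in untreated KO mice at an unadjusted p below 0.05 in edgeR, beside 4 with the dependence removed and 0 without WT mice 1 and 2, both chosen after seeing the data. With the longest transcript as length, the highest gene stood 52.2 times above the lowest in untreated WT and 46.6 times in WT + AAV-GFP mice. The replicate numbers did not pair the mice: deviations of libraries with the same number correlated at a median of 0.01 in the AAV and -0.03 in the untreated cohort. With the replicate number as a block 0 of the 10 genes were called in each of the 8 comparisons, and *Cnot6* with the viruses averaged was at 0.26 (edgeR, adjusted p = 0.0787). Ratios were not fitted with the block.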
